A study of Vitis vinifera with 27 samples.

Results

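Grape berries owe their sourness to malic and tartaric acids held in the vacuole, and the genes described here are those whose products make, break down or move these acids, with the proton pumps that acidify the vacuole. They were chosen by the deposited annotation alone: a gene was a member if the first protein description given for it named malate or malic enzyme, phosphoenolpyruvate carboxylase or carboxykinase, a dicarboxylate carrier, citrate synthase, aconitate or isocitrate enzymes, L-idonate dehydrogenase, or a vacuolar or plasma membrane proton pump. This gave 98 members among the 27096 genes listed in any sample, and the rule uses no expression value. Of the 98, 73 had reads in all 27 samples and 90 passed the filter on low counts and were tested. The other 8 had mean expected counts of 0.333 to 4.00 per sample and comprised 3 plasma membrane ATPases, 2 aluminum-activated malate transporters, 2 pyrophosphate-energized pumps and 1 V-type ATPase subunit G.

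The samples were berries of 3 Muscat table grape cultivars of Vitis vinifera: Zaomeiguixiang (purple-red skin, strong aroma), Italia (moderate aroma) and Xiangfei (green to golden skin, strong aroma). Each was sampled at 3 stages of the Eichhorn-Lorenz scale, namely EL35 (berries begin to colour and soften, the onset of ripening called veraison), EL36 (veraison complete, intermediate sugar) and EL38 (harvest ripeness), with 3 replicates for each of the 9 groups. All vines grew under cover in 1 vineyard in a single season, stages before veraison are not analysed here, and each replicate was a pool of berries, so differences between single berries are averaged. The levels are of berry RNA, in which fewer cells of a type and less RNA per cell cannot be told apart.

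As background, malate in the berry is made largely from phosphoenolpyruvate, which phosphoenolpyruvate carboxylase (PEPC) turns into oxaloacetate and malate dehydrogenase (MDH) then reduces. Malic enzyme and phosphoenolpyruvate carboxykinase (PEPCK) run the other way, from malate to pyruvate and from oxaloacetate to phosphoenolpyruvate, and malate is known to be consumed from veraison onwards. Tartrate comes from ascorbate by a separate route that includes L-idonate 5-dehydrogenase, is laid down mainly before veraison, and is hardly metabolised afterwards. Both acids are carried into the vacuole through the tonoplast by dicarboxylate transporters and by anion channels of the aluminum-activated malate transporter (ALMT) family, driven by the V-type ATPase and the vacuolar pyrophosphatase.

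Levels are given as FPKM, the deposited fragments per kilobase of transcript, scaled to library size. Differences are log2 fold changes with their standard errors (SE) from a model of the read counts over all 27 samples, and a gene was called where its adjusted p was 0.05 or less (edgeR, quasi-likelihood test, Benjamini-Hochberg over 21152 genes). Totals ranged over 16908559 to 27186952 expected counts per sample, and the members took 1.05% to 1.73% of them. The samples were not alike within groups: the TMM scaling factor, which corrects for the composition of a library, spanned 0.651 to 1.331. In Xiangfei, 1 sample of each stage lay at 1.141 to 1.29 and the other 6 at 0.651 to 0.841. Ripening berry genes, a list of 123, summed to 8680 to 56200 FPKM per sample, and 21 green tissue genes to 320 to 5790 FPKM. Of the 123, from 55 to 89 were above 0 in a given sample. The green tissue list moved with both factors, with medians of 2040 FPKM at EL35, 1340 at EL36 and 1180 at EL38, and of 1310 in Zaomeiguixiang, 1080 in Italia and 3370 in Xiangfei. The ripening list had medians of 17800 FPKM at EL35, 26800 at EL36 and 25600 at EL38. The part of these lists in the stage and cultivar differences was not tested. Transcripts of 21 seed storage and oil body genes summed to 48100 FPKM in Italia EL35 replicate 3, 16500 in Zaomeiguixiang EL35 replicate 3 and 2150 in Xiangfei EL38 replicate 3, against 168 to 816 FPKM in the other 24 samples. Stage and cultivar results are therefore also given without these 3 samples where that changes them.

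Taking the most expressed gene of each role, the order began with PEPCK. The PEPCK gene LOC100256754 averaged 791 FPKM over the 27 samples, the highest of the 98 members, and the small subunit of isopropylmalate dehydratase, LOC100241307, an enzyme of leucine synthesis that the word malate brought in, averaged 572. NADP-dependent malic enzyme, NADP-ME, followed at 452 FPKM and LOC100267071, described as citrate synthase-like but placed in the KEGG column with ATP-citrate lyase, at 363. The pumps came next, with V-type ATPase subunit c1 (LOC100252288) at 335 FPKM, the vacuolar pyrophosphatase VPP2 at 279 and plasma membrane ATPase 4 (LOC100254244) at 240. PEPC was lower, at 125 FPKM for LOC100233103. The ALMT genes were lowest of the transport groups, with LOC100250869 at 8.64 FPKM and each of the other 8 below 2. Summed over all genes of a role, the order was different. Group means ran from 1290 to 1900 FPKM for the V-type ATPase and 455 to 2040 for PEPCK. They ran from 670 to 1080 FPKM for MDH and 320 to 805 for malic enzyme.

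Between stages, few members were called and most of those were lower after EL35. In EL38 relative to EL35, averaged over the 3 cultivars, 10 of the 90 tested members were called (11.1%), 2 higher and 8 lower, beside 10.1% of all genes (3.77% higher and 6.28% lower). In EL36 relative to EL35, 9 were called (10.0%), 2 higher and 7 lower, beside 10.8% of all genes (4.57% higher and 6.24% lower). These shares are close to the background, so the members as a class did not stand out by number of calls. Of the 90 EL38 fold changes, 54 were below 0 with a median of -0.18, while 50.0% of all genes were above 0. Without the 3 samples rich in seed transcripts, the calls were 15 (16.7%, beside 9.98% of all genes) in EL38 and 18 (20.0%, beside 11.1%) in EL36, both relative to EL35, and they included all 10 of the EL38 calls from the full set of samples and 7 of its 9 EL36 calls. Leaving out Italia EL35 replicate 3 alone gave 19 calls in EL38 and 17 in EL36, and leaving out Xiangfei EL36 replicate 1 gave 15 in EL36. The share of all genes called in these fits is not given here, so their counts cannot be set against the background. The comparisons of EL38 and of EL36 with EL35 use the same 9 EL35 samples. Between EL38 and EL36 edgeR called 0 members and 1 gene in all (0.00473%), and 8 members and 1519 of all 21152 genes had an unadjusted p under 0.05. DESeq2 called 3 members, beside 1.03% of all genes. Without the 3 seed-rich samples edgeR again called 0 members in this comparison, beside 0.0599% of all genes.

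**Figure D1:**
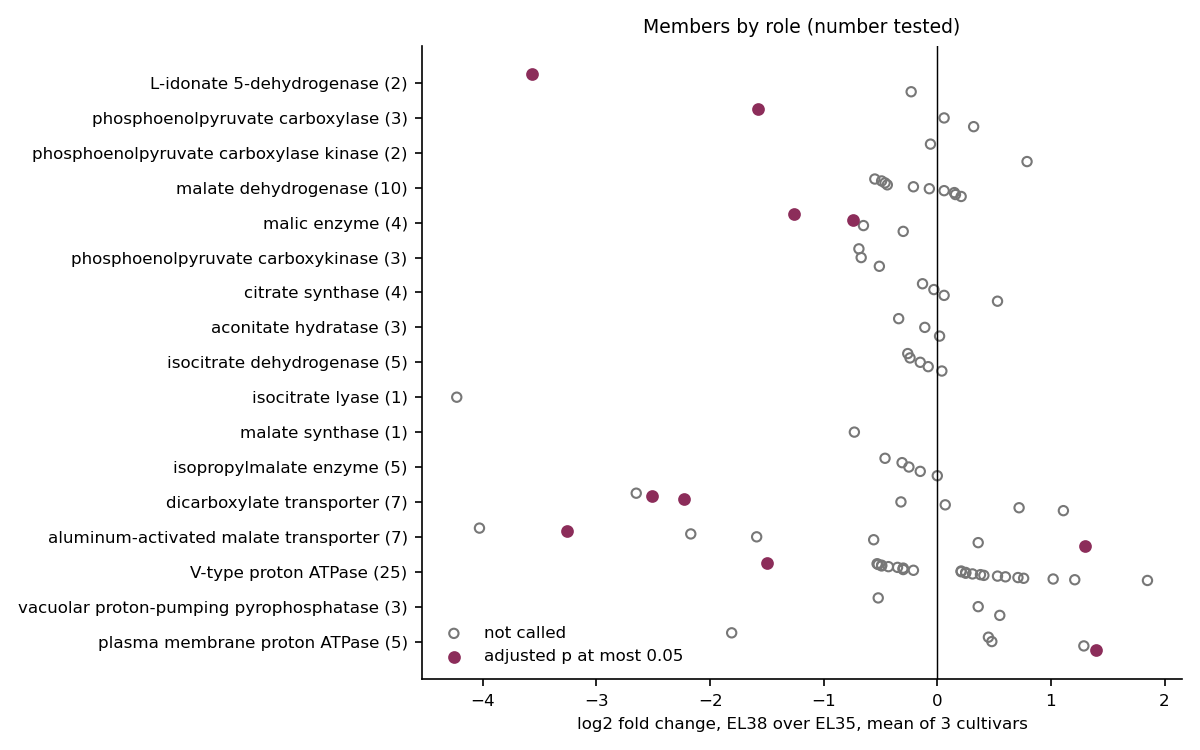
Log2 fold change of the 90 tested members in EL38 relative to EL35, averaged over the 3 cultivars, one row per role with the number tested. Filled points are the 10 called members (edgeR, adjusted p of 0.05 or less), of which 8 lie below 0 and 2 above, and open points are the other 80.

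The largest called difference between EL38 and EL35 belonged to tartrate synthesis. LOC100232980, annotated as L-idonate 5-dehydrogenase isoform X1, stood at 199, 61.2 and 197 FPKM at EL35, 13.3, 57.6 and 30.7 at EL36 and 11.5, 24.2 and 12.9 at EL38 in Zaomeiguixiang. Italia samples had 418, 106 and 84.9 FPKM at EL35, 7.92, 4.71 and 2.86 at EL36 and 18.4, 7.99 and 6.81 at EL38. Xiangfei samples had 71.0, 103 and 196 FPKM at EL35, 85.7, 26.0 and 16.8 at EL36 and 17.9, 7.40 and 51.4 at EL38. In each cultivar all 3 EL38 samples lay below all 3 EL35 samples, and in Zaomeiguixiang and Italia the EL36 samples also lay below the EL35 samples. The gene fell in EL38 (log2 fold change -3.57, SE 0.45, edgeR adjusted p = 1.98e-05) and in EL36 relative to EL35 (log2 fold change -3.15, SE 0.44, edgeR adjusted p = 8.93e-05). It was called in all 27 fits that each left out 1 sample, with log2 fold changes of -3.82 to -3.15 for EL38. Averaged over stages it was lower in Italia than in Xiangfei (log2 fold change -1.24, SE 0.41, edgeR adjusted p = 0.0424), a call that was lost without the 3 seed-rich samples (edgeR adjusted p = 0.128) and in 12 of 27 fits with 1 sample left out.

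A second L-idonate 5-dehydrogenase gene, LOC100257330, sits next to it on chromosome 16 in the RefSeq gene table (assembly ASM3070453v1, used here only for the order of genes), with 0 genes between them. It had 21.9, 47.2 and 22.4 FPKM at EL38 and 94.0, 24.5 and 48.0 at EL35 in Zaomeiguixiang. In Italia the values were 38.9, 21.5 and 25.9 at EL38 and 42.6, 32.2 and 53.4 at EL35, and in Xiangfei they were 6.00, 7.00 and 85.7 at EL38 and 13.4, 17.9 and 12.5 at EL35. The ranges of the stages overlapped in each cultivar, and the difference was not called (log2 fold change -0.23, SE 0.40, edgeR adjusted p = 0.837). The ratio of the pair was higher after EL35: LOC100257330 over LOC100232980 had a median ratio of 0.400 at EL35, 2.17 at EL36 and 1.90 at EL38 in Zaomeiguixiang, 0.303, 2.53 and 2.69 in Italia, and 0.174, 1.68 and 0.946 in Xiangfei. No test was run on the ratio, and reads shared between these similar sequences could have been divided either way by the authors' counting.

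**Figure D2:**
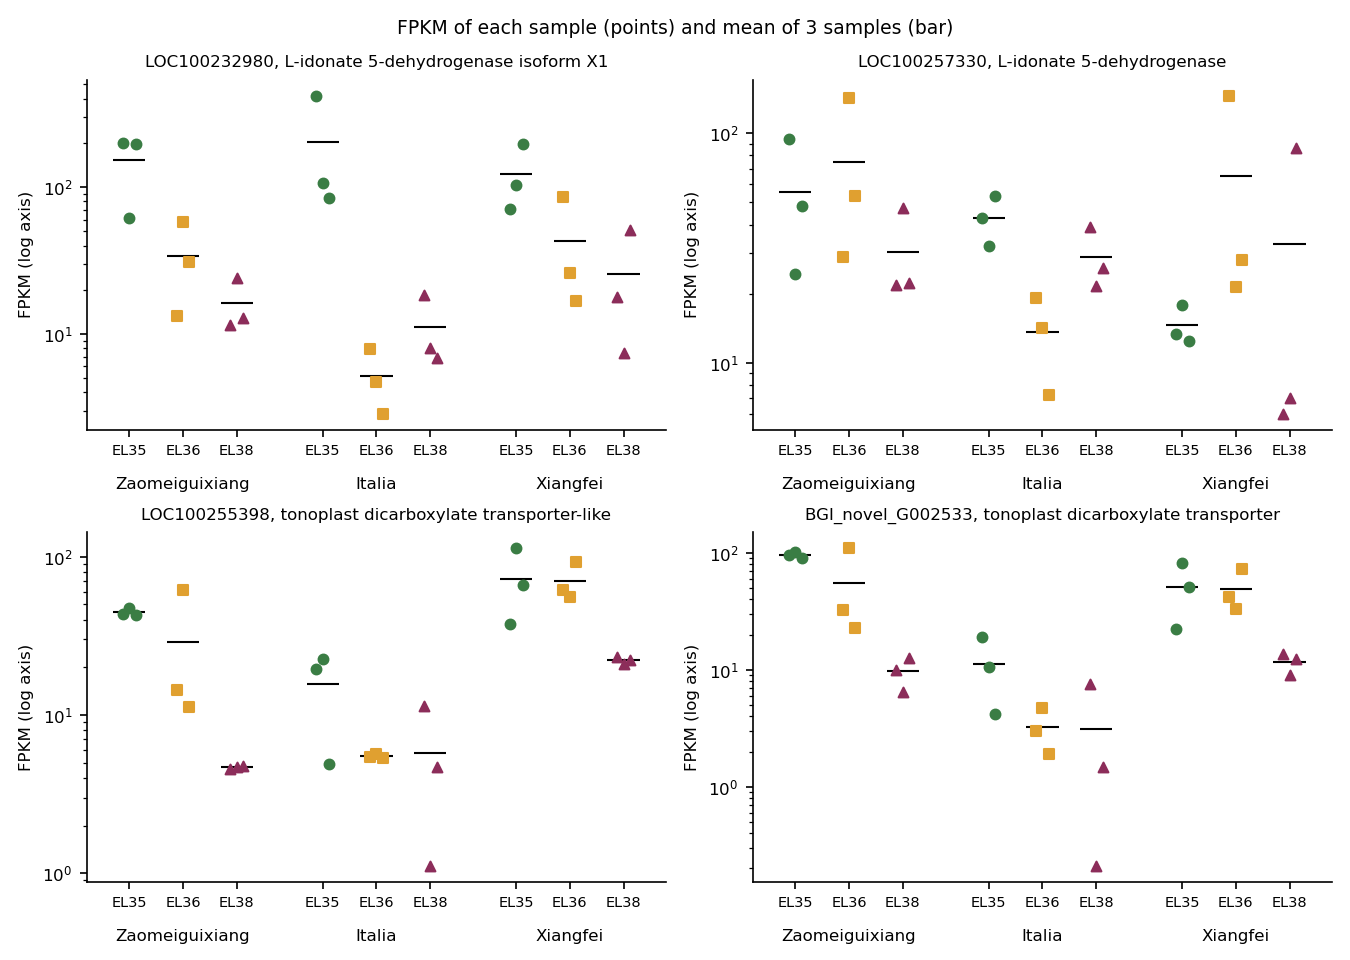
FPKM of the L-idonate 5-dehydrogenase pair (top) and of the tonoplast dicarboxylate transporters LOC100255398 and BGI_novel_G002533 (bottom) on log axes, with 1 point per sample, circles for EL35, squares for EL36 and triangles for EL38, and a bar at the mean of 3. LOC100232980 and both transporters are lower at EL38 than at EL35 in all samples of Zaomeiguixiang and Xiangfei, while LOC100257330 overlaps between these stages in each cultivar.

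Among the enzymes that form malate, 1 of the 3 PEPC genes was called in EL38 relative to EL35, beside 10.1% of all genes. LOC100247335, PEPC isoform 4 and the least abundant of the 3 (16.4 FPKM on average), had 8.98, 14.2 and 12.3 FPKM at EL38 and 25.3, 16.9 and 41.1 at EL35 in Zaomeiguixiang. The Italia samples stood at 12.8, 8.14 and 7.58 at EL38 and 44.5, 36.8 and 23.5 at EL35, and those of Xiangfei at 4.44, 6.86 and 9.48 at EL38 and 25.8, 15.9 and 18.4 at EL35. No EL38 sample reached an EL35 sample of its own cultivar, and the gene fell (log2 fold change -1.58, SE 0.21, edgeR adjusted p = 4e-05), as it did at EL36 (log2 fold change -1.09, SE 0.21, edgeR adjusted p = 0.00153). The major genes, both described as housekeeping PEPC, gave log2 fold changes of 0.06 (SE 0.32) for LOC100233103 and 0.32 (SE 0.25) for LOC100267525 in EL38, and neither was called. PEPC kinase 1, which phosphorylates PEPC and makes it less sensitive to inhibition by malate, is annotated for LOC100252772 and LOC100253505, and the first had a log2 fold change of 0.79 (SE 0.37) without a call. Of the 10 genes described as MDH, 0 were called in either comparison, beside 10.1% of all genes in EL38 and 10.8% in EL36. Their EL38 fold changes were -0.55 to 0.21 on the log2 scale. The most abundant of them, cytoplasmic LOC100248145, had a log2 fold change of -0.49 (SE 0.25).

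Malate is consumed by malic enzyme and, through oxaloacetate, by PEPCK. All 4 genes described as malic enzyme had negative fold changes in EL38 relative to EL35, where 50.0% of all genes were above 0. Of the 4, 2 were called, beside 6.28% of all genes called lower. LOC100249166, an NADP-dependent isoform, had 16.5, 11.4 and 13.5 FPKM at EL38 and 39.4, 53.2 and 22.1 at EL35 in Zaomeiguixiang. Italia samples had 1.04, 1.41 and 2.58 at EL38 and 2.66, 1.74 and 2.51 at EL35, and Xiangfei samples had 19.0, 5.13 and 10.4 at EL38 and 28.1, 44.7 and 37.1 at EL35 (log2 fold change -1.26, SE 0.29, edgeR adjusted p = 0.00655). The mitochondrial NAD-dependent 59 kDa isoform, LOC100241371, fell by less (log2 fold change -0.74, SE 0.17, edgeR adjusted p = 0.00572), with ranges that overlapped between EL38 and EL35 in Zaomeiguixiang and Xiangfei. The dominant gene NADP-ME stood at 436, 439 and 524 FPKM at EL38 and 735, 699.8 and 661 at EL35 in Zaomeiguixiang. In Italia the values were 280.4, 273 and 381 at EL38 and 763, 573 and 329 at EL35, and in Xiangfei they were 294, 591 and 385 at EL38 and 501, 485 and 631 at EL35. Its groups did not overlap in Zaomeiguixiang, but the average over cultivars missed the threshold (log2 fold change -0.65, SE 0.25, edgeR adjusted p = 0.106), and it passed with DESeq2 (-0.61, adjusted p = 0.0426). VVME2, described as MDH but given as NADP malic enzyme in the KEGG column, averaged 179 FPKM and was not called between stages.

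PEPCK, which opens the path from malate back to sugars, was represented by 3 gene models. LOC100256754 had 1618, 1188 and 1299 FPKM at EL35, 1232, 1343 and 721 at EL36 and 806, 666 and 917 at EL38 in Zaomeiguixiang. Xiangfei samples had 1204, 1140.4 and 1036 FPKM at EL35, 259.8, 543 and 296 at EL36 and 566, 789 and 429.5 at EL38, and Italia samples had 649, 914 and 355 at EL35, 661, 587 and 454 at EL36 and 355, 601 and 741 at EL38. In Zaomeiguixiang and Xiangfei the EL38 samples all lay below the EL35 samples, in Italia they overlapped, and the average difference was not called (log2 fold change -0.67, SE 0.30, edgeR adjusted p = 0.169). The shorter models LOC100854135 and LOC100854812 gave log2 fold changes of -0.69 (SE 0.25) and -0.51 (SE 0.30), and the first passed the threshold where seed-rich samples were left out (-0.75, edgeR adjusted p = 0.0442 without the 3).

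None of the 4 citrate synthase, 3 aconitate hydratase or 5 isocitrate dehydrogenase genes, nor of the 5 leucine-pathway isopropylmalate enzymes, was called in EL38 or EL36 relative to EL35. Of all genes, 10.1% were called in EL38 and 10.8% in EL36. Cytoplasmic aconitate hydratase LOC100253811, which converts citrate to isocitrate, had a log2 fold change of 0.02 (SE 0.28) in EL38, and NADP-dependent isocitrate dehydrogenase LOC100261578 had -0.15 (SE 0.25). LOC100267071 had 0.53 (SE 0.28).

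Isocitrate lyase and malate synthase, the paired enzymes of the glyoxylate cycle that turns stored oil into malate in germinating seeds, followed single samples and not stages. LOC100248231, isocitrate lyase, was at 51.7 FPKM in Zaomeiguixiang EL35 replicate 3, 28.7 in Italia EL35 replicate 3 and 56.7 in Xiangfei EL38 replicate 3, and at 0 to 0.30 in the other 24. These are the 3 samples rich in seed storage transcripts, and they held 99.5% of its summed FPKM. LOC100261216, malate synthase, was at 123 FPKM in Italia EL35 replicate 3 and 114 in Xiangfei EL38 replicate 3, but at 0.15 in Zaomeiguixiang EL35 replicate 3 and 0 to 0.28 in the rest. The fitted EL36 difference of isocitrate lyase, 1 of the 9 calls (log2 fold change -6.18, SE 1.80, edgeR adjusted p = 0.0304), rests on these samples: it was lost in 11 of 27 fits with 1 sample left out, and without all 3 too few reads remained for a test. The order of the samples differed between the measures: the seed list was highest in Italia EL35 replicate 3, isocitrate lyase in Xiangfei EL38 replicate 3. The legumin gene LOC100241281 and the albumin gene LOC100252101 were at 3629 and 10096 FPKM in Zaomeiguixiang EL35 replicate 3 and at 3345 and 6531 in Italia EL35 replicate 3, yet at 0.10 and 3.56 in Xiangfei EL38 replicate 3, where vicilin-like LOC100852645 reached 796. For the 98 members the median share of summed FPKM in these 3 samples was 11.4%, against 11.1% if all samples had been equal. How far seed tissue entered the berry RNA was not tested.

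**Figure D3:**
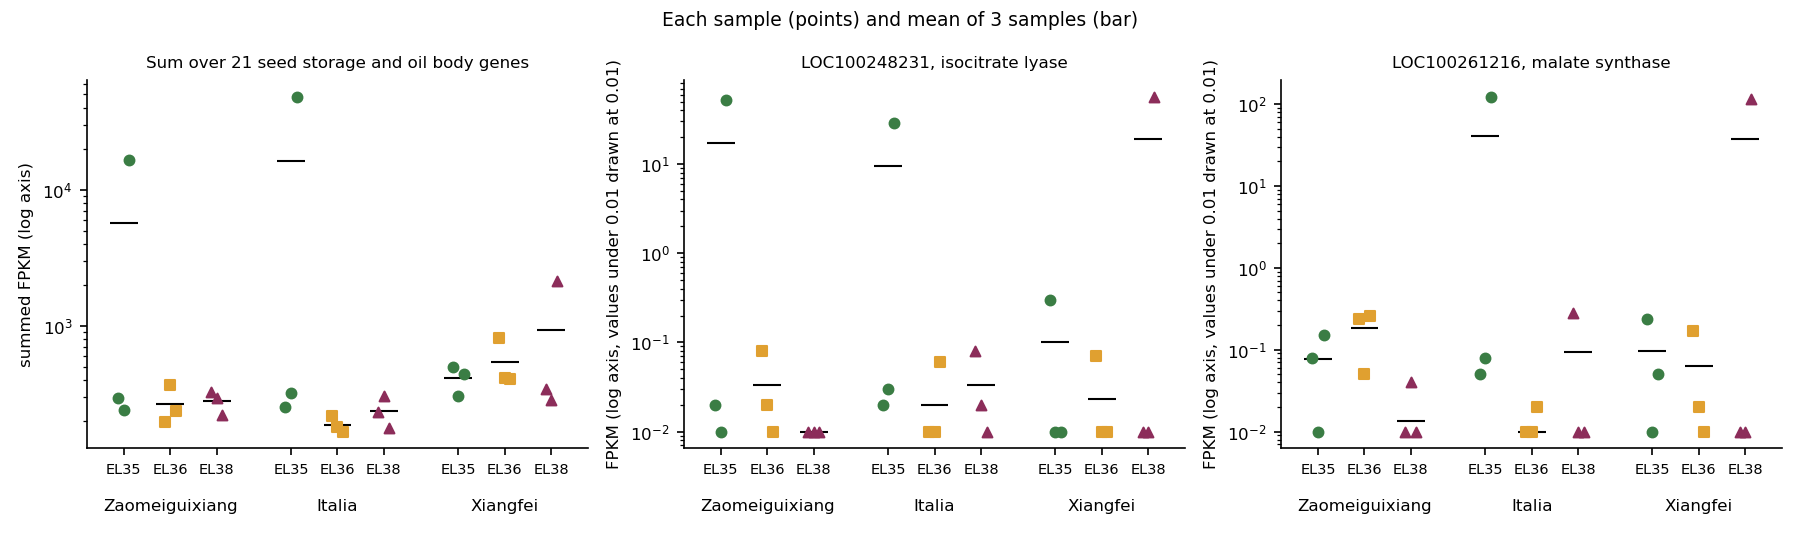
Summed FPKM of 21 seed storage and oil body genes (left), and FPKM of isocitrate lyase LOC100248231 (middle) and malate synthase LOC100261216 (right), on log axes with 1 point per sample and a bar at the mean of 3. In the left and middle panels 1 sample each of Zaomeiguixiang EL35, Italia EL35 and Xiangfei EL38 stands above all others, and in the right panel only the Italia EL35 and Xiangfei EL38 samples do.

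Of the 3 genes described as tonoplast dicarboxylate transporters, which carry malate into the vacuole, 2 fell in EL38 relative to EL35, beside 6.28% of all genes. LOC100255398 and BGI_novel_G002533, both of this description (the second is a transcript the authors assembled beyond the reference), were the most abundant of their kind. LOC100255398 had 4.55, 4.70 and 4.72 FPKM at EL38 and 43.3, 47.4 and 42.7 at EL35 in Zaomeiguixiang. The Italia samples stood at 11.3, 1.11 and 4.68 at EL38 and 19.6, 22.4 and 4.88 at EL35, and those of Xiangfei at 23.3, 20.8 and 22.1 at EL38 and 37.3, 113 and 66.1 at EL35. In Zaomeiguixiang and Xiangfei the stages were well apart, in Italia they overlapped, and the gene fell on average (log2 fold change -2.23, SE 0.43, edgeR adjusted p = 0.00152). BGI_novel_G002533 had 10.0, 6.41 and 12.7 FPKM at EL38 and 96.3, 102 and 90.4 at EL35 in Zaomeiguixiang. Italia samples had 7.60, 0.21 and 1.49 at EL38 and 19.2, 10.6 and 4.23 at EL35, and Xiangfei samples had 13.6, 9.06 and 12.5 at EL38 and 22.3, 82.0 and 50.7 at EL35 (log2 fold change -2.51, SE 0.51, edgeR adjusted p = 0.00233). Neither was called in EL36 relative to EL35, with log2 fold changes of -0.69 (SE 0.41) and -0.86 (SE 0.49). The pair share a description and may share reads, so they are not independent observations. Another gene of this description, LOC100854531, averaged 3.26 FPKM and was not called between stages (log2 fold change -2.65, SE 1.04, edgeR adjusted p = 0.116).

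The other dicarboxylate carriers belong to mitochondria and plastids. None was called between stages. The chloroplast dicarboxylate transporter 1, LOC100253664, which exchanges malate for oxoglutarate, gave the largest positive value (log2 fold change 1.11, SE 0.41, edgeR adjusted p = 0.0876). In Xiangfei its EL38 samples were at 501, 463 and 57.4 FPKM and its EL35 samples at 88.1, 109 and 95.0. The low EL38 sample of Xiangfei is the one rich in seed transcripts, and without the 3 such samples the average difference passed (1.11, SE 0.35, edgeR adjusted p = 0.0441). The mitochondrial carrier LOC100255213 had a log2 fold change of 0.07 (SE 0.23).

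Of the 7 ALMT genes tested, 2 were called in EL38 relative to EL35 (beside 10.1% of all genes), in opposite directions. LOC100250869, named ALMT9-like after the Arabidopsis vacuolar malate channel, had 9.07, 11.8 and 11.3 FPKM at EL38 and 0.61, 3.35 and 3.85 at EL35 in Zaomeiguixiang. In Italia the values were 16.0, 22.9 and 17.7 at EL38 and 3.84, 4.68 and 7.02 at EL35, and in Xiangfei they were 3.81, 3.11 and 2.73 at EL38 and 5.06, 3.68 and 1.23 at EL35. It rose on average (log2 fold change 1.30, SE 0.39, edgeR adjusted p = 0.0344), with EL38 above EL35 in all samples of Zaomeiguixiang and Italia and overlap in Xiangfei. The call was made in 18 of 27 fits with 1 sample left out, the highest adjusted p being 0.0744 (edgeR) without Xiangfei EL38 replicate 1. In EL36 relative to EL35 it also rose (log2 fold change 1.63, SE 0.39, edgeR adjusted p = 0.00924). ALMT2, LOC100263377, fell (log2 fold change -3.26, SE 0.82, edgeR adjusted p = 0.0117) from a low level, with an average of 1.38 FPKM over all samples and 37.4% of its summed FPKM in the 3 seed-rich samples. ALMT8-like LOC100254043 was among the EL36 calls (log2 fold change -5.85, SE 1.51, edgeR adjusted p = 0.0192) but averaged 0.137 FPKM, and it was not called without the 3 seed-rich samples (-4.36, SE 1.54, edgeR adjusted p = 0.0833).

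**Figure D4:**
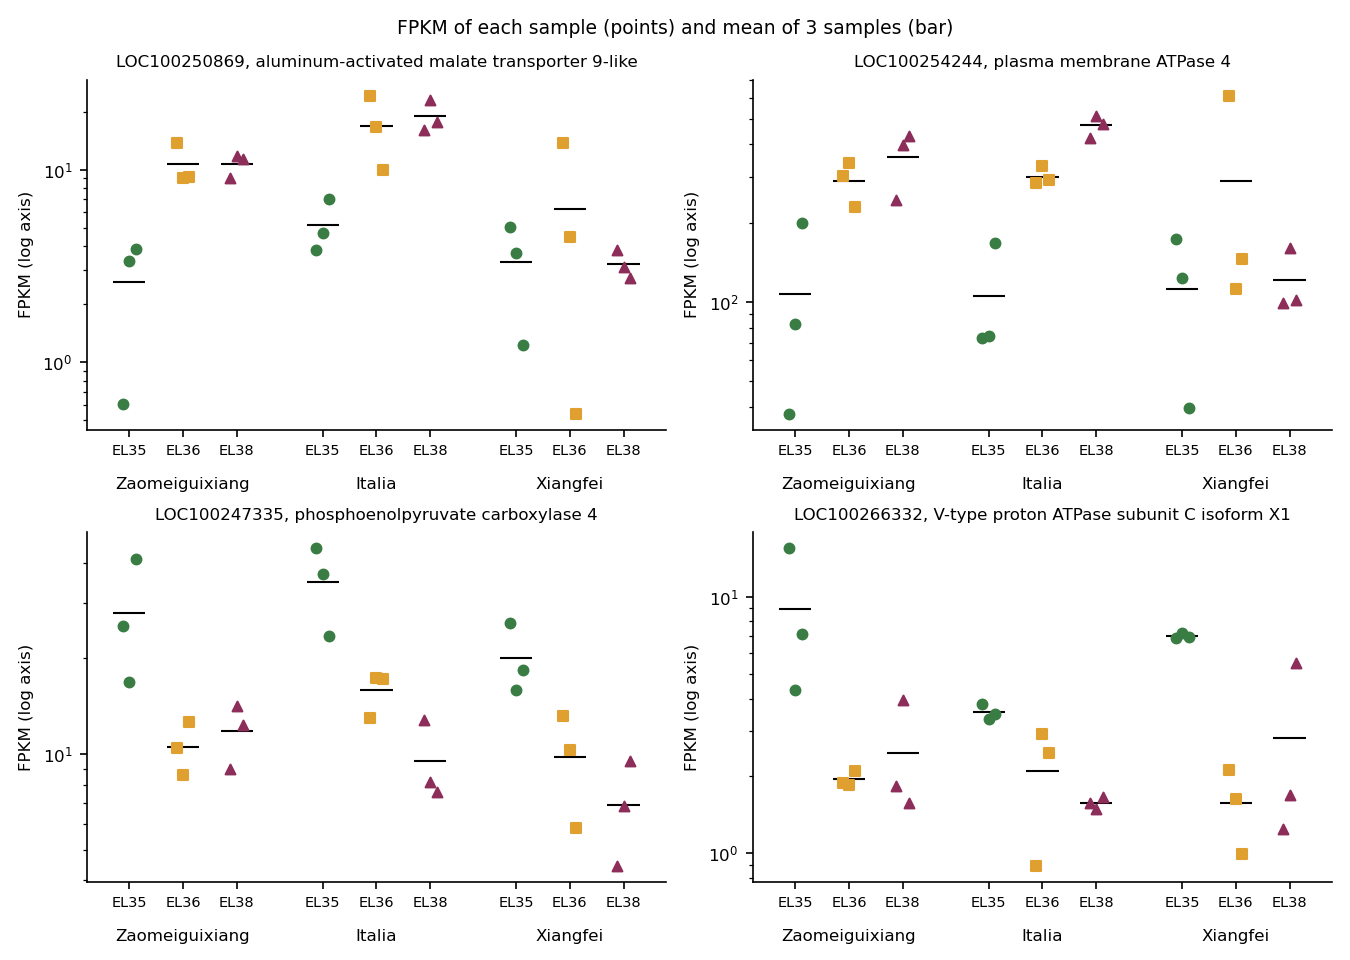
FPKM of the 2 members that rose between EL35 and EL38, ALMT9-like LOC100250869 and plasma membrane ATPase 4 LOC100254244 (top), and of PEPC4 LOC100247335 and V-type ATPase subunit C LOC100266332 (bottom), which fell. Log axes, 1 point per sample, circles for EL35, squares for EL36, triangles for EL38, bar at the mean of 3. In the top panels EL38 lies above EL35 in Zaomeiguixiang and Italia and overlaps it in Xiangfei.

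The V-type ATPase, a rotary pump of 13 kinds of subunit in this annotation, was expressed with each kind at a summed 30.9 (subunit e) to 335 (subunit c) FPKM. In the full set of samples 1 of 25 tested genes was called in EL38 relative to EL35 (beside 10.1% of all genes) and 2 in EL36 (beside 10.8%), all lower, with 14 of 25 fold changes above 0 in EL38 and a median of 0.21. The called gene, LOC100266332, is a minor copy of subunit C that averaged 3.55 FPKM beside 144 for the main copy LOC100267004. It had 1.83, 3.96 and 1.56 FPKM at EL38 and 15.4, 4.33 and 7.15 at EL35 in Zaomeiguixiang. The Italia samples stood at 1.57, 1.48 and 1.66 at EL38 and 3.82, 3.32 and 3.49 at EL35, and those of Xiangfei at 1.24, 1.69 and 5.53 at EL38 and 6.92, 7.19 and 6.95 at EL35. All EL38 samples were below all EL35 samples of the same cultivar (log2 fold change -1.50, SE 0.29, edgeR adjusted p = 0.00159). The second EL36 call, subunit E gene LOC100246834, averaged 48.2 FPKM and fell in EL36 relative to EL35 (log2 fold change -0.80, SE 0.21, edgeR adjusted p = 0.0177), a call that was lost without Zaomeiguixiang EL35 replicate 1 (-0.54, edgeR adjusted p = 0.058). Subunit c1, LOC100252288, gave 0.21 (SE 0.30) on the same scale. Without the 3 seed-rich samples the counts were 6 lower and 3 higher in EL36 (beside 11.1% of all genes), and 1 lower and 3 higher in EL38 (beside 9.98%), both of 25 and relative to EL35.

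Neither abundant vacuolar pyrophosphatase, the single-chain pump that runs on pyrophosphate, was called between stages, and VPP2 gave a log2 fold change of -0.52 (SE 0.48) in EL38 relative to EL35. At the plasma membrane, where proton ATPases energise uptake into the cell, ATPase 4 (LOC100254244) rose. It had 245, 397 and 431 FPKM at EL38 and 37.6, 82.3 and 201 at EL35 in Zaomeiguixiang. Italia samples had 424, 512 and 479 at EL38 and 72.8, 74.3 and 169 at EL35, and Xiangfei samples had 99.6, 162 and 102 at EL38 and 175, 123 and 39.5 at EL35. The rise was clear of overlap in Zaomeiguixiang and Italia while the stages overlapped in Xiangfei (log2 fold change 1.40, SE 0.31, edgeR adjusted p = 0.00488), and was present at EL36 (log2 fold change 1.55, SE 0.31, edgeR adjusted p = 0.00244). ATPase 1, LOC100241576, gave 0.48 (SE 0.30) without a call.

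Within single cultivars, with 3 samples against 3, calls in EL38 relative to EL35 were few. In Zaomeiguixiang 3 of 90 members fell, beside 1.53% of all genes called (0.596% higher and 0.931% lower): LOC100232980 (-3.56, SE 0.78), LOC100255398 (-3.46, SE 0.79) and LOC100266332 (-1.99, SE 0.51). In Italia 3 were called, beside 2.95% of all genes (1.04% higher and 1.91% lower), with LOC100232980 (-4.53, SE 0.82) and LOC100247335 (-2.02, SE 0.37) lower and LOC100254244 higher (2.15, SE 0.55). In Xiangfei edgeR called 0, beside 1.17% of all genes (0.43% higher and 0.742% lower). There 22 members, and 3429 of all 21152 genes, had an unadjusted p under 0.05 in edgeR. DESeq2 called 8 members in Xiangfei, beside 6.66% of all genes. Without the 3 seed-rich samples edgeR called 4 in Zaomeiguixiang (beside 1.41% of all genes), 7 in Italia (beside 5.15%) and 1 in Xiangfei (beside 2.03%). The Zaomeiguixiang calls were the least steady: the fit called 0 or 1 members when any 1 of its EL35 or EL38 samples was left out. A direct edgeR test of whether the EL38 difference varied among cultivars called 0 of 90 members, beside 0.161% of all genes. In it 9 members, and 2650 of all 21152 genes, had an unadjusted p under 0.05. DESeq2 called 0 of 85 members, beside 4.58% of all genes. A stage change seen in one cultivar and missed in another was thus not shown to differ between them.

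Between cultivars, averaged over the 3 stages, 22 of 90 members were called between Zaomeiguixiang and Xiangfei (24.4%, 8 higher and 14 lower, beside 16.0% of all genes), 16 between Italia and Xiangfei (17.8%, 4 higher and 12 lower, beside 16.1%), and 13 between Zaomeiguixiang and Italia (14.4%, 8 higher and 5 lower, beside 15.5%). Over all genes, 5.93% were higher and 10.1% lower in Zaomeiguixiang than in Xiangfei, 6.15% higher and 10.0% lower in Italia than in Xiangfei, and 8.56% higher and 6.97% lower in Zaomeiguixiang than in Italia. Each pair of these comparisons shares the samples of 1 cultivar. The direction of the calls depended on scaling, for members and for all genes. With library totals in place of TMM, 10 members were higher and 5 lower in Zaomeiguixiang than in Xiangfei, beside 1488 and 867 of all 21152 genes. In Italia relative to Xiangfei 7 members were higher and 7 lower, beside 1467 and 1493 of all genes. With TMM the counts over all genes were 1254 higher and 2139 lower for Zaomeiguixiang, and 1300 and 2115 for Italia. Without the 3 seed-rich samples, 33 were called between Zaomeiguixiang and Xiangfei (beside 24.1% of all genes), 18 between Italia and Xiangfei (beside 16.5%) and 25 between Zaomeiguixiang and Italia (beside 17.9%). Leaving out Xiangfei EL38 replicate 3 alone gave 34 calls between Zaomeiguixiang and Xiangfei, and leaving out Italia EL35 replicate 3 gave 22 between Zaomeiguixiang and Italia. For these fits too the share of all genes called is not given, so the counts cannot be set against the background.

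Italia differed from both other cultivars in a pair of minor isoforms. The NADP malic enzyme LOC100249166 ran from 11.4 to 71.0 FPKM (median 31.9) in the 9 Zaomeiguixiang samples, 1.04 to 3.35 (median 2.58) in Italia and 5.13 to 44.7 (median 18.9) in Xiangfei. No Italia sample reached the range of the others, and it was lower in Italia than in Xiangfei (log2 fold change -3.28, SE 0.31, edgeR adjusted p = 1.4e-07) and higher in Zaomeiguixiang than in Italia (log2 fold change 3.57, SE 0.32, edgeR adjusted p = 4.07e-08). A second gene for the catalytic subunit A of the V-type ATPase, LOC100266369, showed the reverse, at 0.08 to 0.43 FPKM in Zaomeiguixiang (median 0.21), 1.54 to 5.30 in Italia (median 2.76) and 0.05 to 0.69 in Xiangfei (median 0.15). It was higher in Italia than in Xiangfei (log2 fold change 3.56, SE 0.48, edgeR adjusted p = 1.54e-05) and lower in Zaomeiguixiang than in Italia (log2 fold change -4.09, SE 0.49, edgeR adjusted p = 3.44e-06). Its share of subunit A stayed small, since LOC100261512 averaged 175 FPKM.

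Tonoplast dicarboxylate transporters also differed between cultivars. LOC100255398 was lower than in Xiangfei both in Italia (log2 fold change -2.75, SE 0.44, edgeR adjusted p = 0.000128) and in Zaomeiguixiang (log2 fold change -1.97, SE 0.43, edgeR adjusted p = 0.00322). BGI_novel_G002533 was lower in Italia than in Xiangfei (log2 fold change -2.89, SE 0.52, edgeR adjusted p = 0.000442) and higher in Zaomeiguixiang than in Italia (log2 fold change 2.68, SE 0.52, edgeR adjusted p = 0.00101). The ratio of BGI_novel_G002533 to LOC100255398 was 1.36 to 2.69 in the 9 Zaomeiguixiang samples, 0.189 to 0.982 in Italia and 0.435 to 0.792 in Xiangfei, so it separated Zaomeiguixiang from both others at every stage. LOC100854531 was listed at 0 in 6 of 9 Xiangfei samples and at 0.22 to 0.64 FPKM in the remaining 3. It ran from 0 to 6.49 FPKM in Zaomeiguixiang (log2 fold change 5.74, SE 1.01, edgeR adjusted p = 0.000641 relative to Xiangfei) and from 1.24 to 16.1 FPKM in Italia (log2 fold change 6.93, SE 1.03, edgeR adjusted p = 7.4e-05 relative to Xiangfei).

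The short PEPCK models differed between Zaomeiguixiang and the other cultivars. The model LOC100854135 ran from 275 to 616 FPKM in Zaomeiguixiang, 74.2 to 218 in Italia and 59.6 to 281 in Xiangfei, and was higher in Zaomeiguixiang than in Xiangfei (log2 fold change 1.39, SE 0.26, edgeR adjusted p = 0.000817) and than in Italia (log2 fold change 1.51, SE 0.26, edgeR adjusted p = 0.000316). LOC100854812 followed it (log2 fold change 1.57, SE 0.31, edgeR adjusted p = 0.0014, and log2 fold change 1.46, SE 0.31, edgeR adjusted p = 0.00238, in the same order). The full-length gene LOC100256754 was not called in either, at 0.31 (SE 0.29) relative to Xiangfei. The ratio of LOC100854135 to LOC100256754 held within 0.381 to 0.452 in Zaomeiguixiang, 0.204 to 0.255 in Italia and 0.167 to 0.238 in Xiangfei, while LOC100256754 itself ranged over 259.8 to 1618 FPKM. The lengths used in counting were 848 bases for LOC100854135, 572 for LOC100854812 and 2310 for LOC100256754. Whether the short models are separate genes or divide the reads of the long one was not tested, and neither is in the RefSeq gene table.

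**Figure D5:**
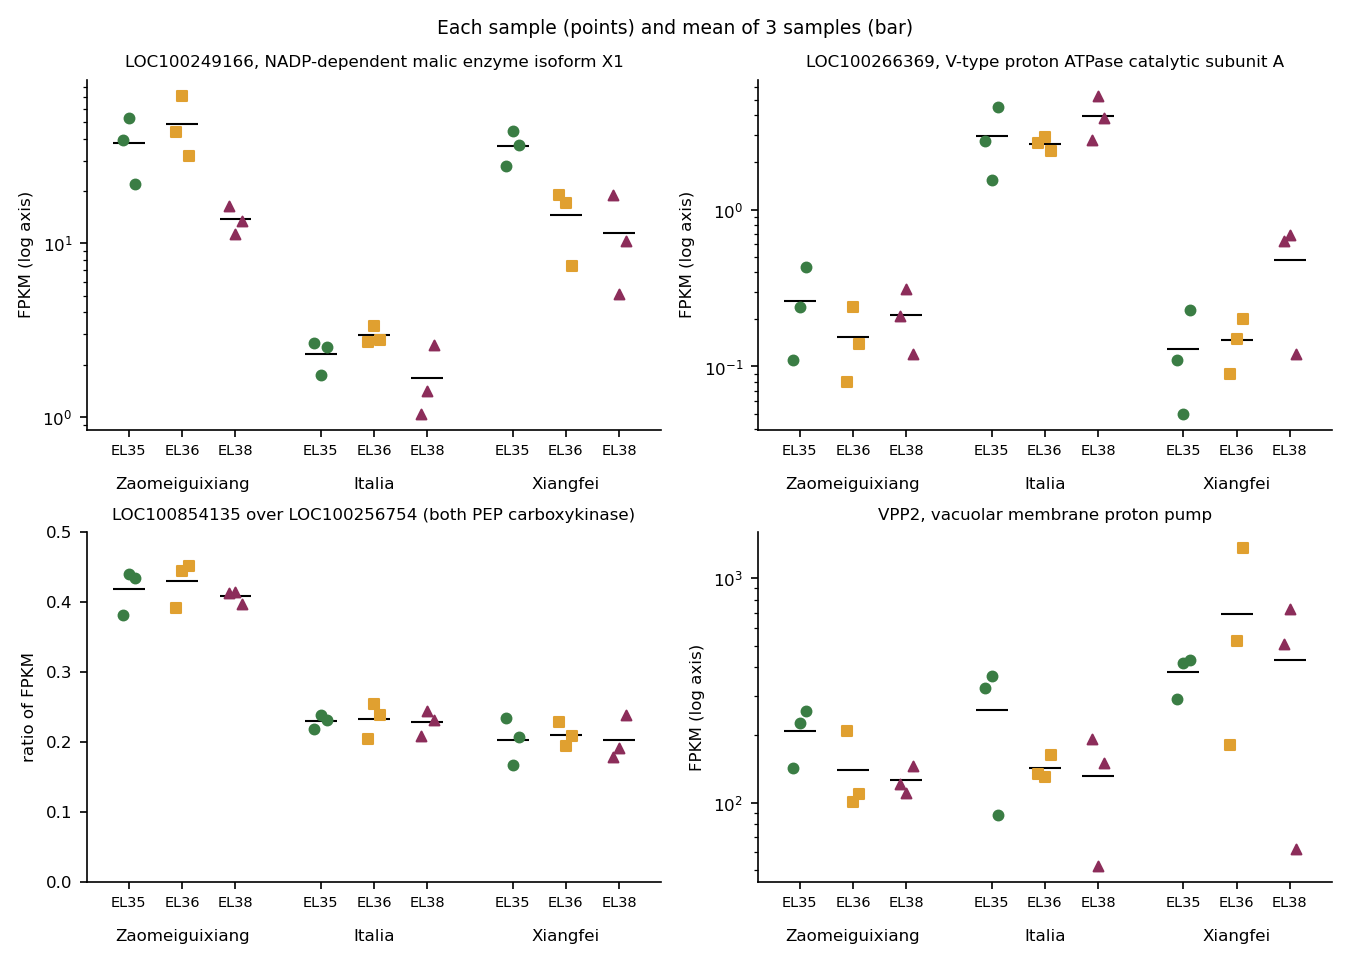
Values by cultivar and stage, 1 point per sample with a bar at the mean of 3, for the NADP malic enzyme LOC100249166, the V-type ATPase subunit A copy LOC100266369 and the vacuolar pyrophosphatase VPP2 (FPKM, log axes), and for the ratio of FPKM of the PEPCK models LOC100854135 and LOC100256754 (linear axis from 0). Italia is lowest for LOC100249166 and highest for LOC100266369, Zaomeiguixiang is highest for the ratio, and VPP2 is highest in 6 of the 9 Xiangfei samples.

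Several abundant genes were lower in Zaomeiguixiang. The PEPC gene LOC100233103 ran from 55.3 to 137 FPKM in Zaomeiguixiang, with a median of 70.1, against a median of 192 in Italia and 123 in Xiangfei, and was lower than in Italia (log2 fold change -1.35, SE 0.33, edgeR adjusted p = 0.00711) and Xiangfei (log2 fold change -1.09, SE 0.32, edgeR adjusted p = 0.0241). The call against Xiangfei was lost in 5 of 27 fits with 1 sample left out, with an adjusted p of up to 0.0622 (edgeR, without Xiangfei EL38 replicate 2). The other housekeeping PEPC, LOC100267525, was lower than in Italia (log2 fold change -0.96, SE 0.25, edgeR adjusted p = 0.011), as was plasma membrane ATPase 1 (log2 fold change -1.46, SE 0.30, edgeR adjusted p = 0.00197). VVME2 was lower than in Xiangfei (log2 fold change -0.88, SE 0.21, edgeR adjusted p = 0.00679) and Italia (log2 fold change -0.69, SE 0.21, edgeR adjusted p = 0.0291), and the call against Italia was lost in 8 of 27 fits with 1 sample left out (edgeR adjusted p up to 0.0772, without Italia EL36 replicate 1). All 10 genes described as MDH had negative fold changes in Zaomeiguixiang relative to Xiangfei, where 52.7% of all genes were above 0. Of the 10, 3 were called, beside 16.0% of all genes. With library totals in place of TMM, 5 of the 10 were above 0, beside 67.7% of all genes. One of the called 3, glyoxysomal MDH LOC100232924, differed by -1.59 (SE 0.38), and a minor cytoplasmic aconitate hydratase, LOC100256776, by -1.91 (SE 0.34).

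VPP2 was lower than in Xiangfei both in Zaomeiguixiang (log2 fold change -2.19, SE 0.50, edgeR adjusted p = 0.00452) and in Italia (log2 fold change -1.84, SE 0.49, edgeR adjusted p = 0.0122). It ran from 100 to 255 FPKM in Zaomeiguixiang and 52.2 to 367 in Italia. In Xiangfei it moved with the scaling factor of the library: the 6 samples with factors of 0.651 to 0.841 held 420 to 1360 FPKM, and the 3 with factors of 1.141 to 1.29 held 62.5 to 290. The dicarboxylate transporter LOC100253664, also lower in Zaomeiguixiang than in Xiangfei (log2 fold change -1.71, SE 0.41, edgeR adjusted p = 0.00722), split the same way, with 95.0 to 501 FPKM in these 6 samples and 57.4 to 88.1 in these 3. The green tissue list summed to 2040 to 5790 FPKM in these 6 samples and 643 to 3370 in these 3. What set the 3 Xiangfei samples apart was not tested. Further differences concerned citrate synthase of the glyoxysome, LOC100255795, lower in Italia than in Xiangfei (log2 fold change -0.93, SE 0.19, edgeR adjusted p = 0.00164), and the V-type ATPase subunit B3-like LOC100257413, higher in Italia than in Xiangfei (log2 fold change 1.10, SE 0.23, edgeR adjusted p = 0.00163). PEPC kinase 1, LOC100252772, was lower than in Xiangfei in Zaomeiguixiang (log2 fold change -1.12, SE 0.37, edgeR adjusted p = 0.0431) and in Italia (log2 fold change -1.25, SE 0.38, edgeR adjusted p = 0.0239). These calls were lost in 13 (Zaomeiguixiang) and 6 (Italia) of 27 fits with 1 sample left out, with adjusted p-values of up to 0.117 and 0.0681 in the same order (edgeR, both without Xiangfei EL38 replicate 1). The pyrophosphatase-like LOC100266984, flagged in its description as a low-quality protein, was listed at 0 in 8 of 9 samples of Italia and of Xiangfei and at 0.20 to 5.68 FPKM in the 9 Zaomeiguixiang samples.

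Related genes outside the members were counted in 3 lists. Of 7 genes of ascorbate synthesis, the source of tartrate, 3 fell in EL38 relative to EL35 and 0 rose, beside 6.28% of all genes lower and 3.77% higher. They were GDP-mannose 3,5-epimerase LOC100245900 (-2.64, SE 0.32) and the mannose-1-phosphate guanylyltransferases LOC100233006 (-1.44, SE 0.23) and LOC100241648 (-1.60, SE 0.30), all on the log2 scale. The epimerase had 84.6, 50.2 and 47.9 FPKM at EL38 and 1062, 179 and 458 at EL35 in Zaomeiguixiang. In Italia the values were 48.4, 80.1 and 55.1 at EL38 and 404, 147 and 231 at EL35, and in Xiangfei they were 16.4, 19.9 and 103 at EL38 and 203, 146 and 299.9 at EL35. Without the 3 seed-rich samples 3 of the 7 fell and 1 rose. Of 37 other vacuolar exchangers and P-type pumps tested among 42, 6 fell and 0 rose, among them vacuolar cation/proton exchanger 3, LOC100240763 (-4.80, SE 0.76), and LOC100265284, described as plasma membrane-type ATPase 10 (-1.36, SE 0.27). The exchanger had 0.89, 0.77 and 0.70 FPKM at EL38 and 7.33, 4.26 and 62.4 at EL35 in Zaomeiguixiang. The Italia samples stood at 6.89, 0.55 and 1.33 at EL38 and 196, 60.4 and 65.1 at EL35, and those of Xiangfei at 0.72, 0.02 and 8.66 at EL38 and 52.2, 61.1 and 18.1 at EL35. Without the 3 seed-rich samples 4 of the 35 then tested fell and 1 rose, at EL38 and at EL36 alike. Of 30 further citric acid cycle and pyruvate genes tested among 33, 1 fell, plastid pyruvate kinase LOC100244565 (-0.70, SE 0.22), and 0 rose, while 2 of 29 fell and 1 rose without the 3 seed-rich samples. The shares of all genes given for the ascorbate list apply to all 3 lists in the full set of samples. Without the 3 seed-rich samples, 9.98% of all genes were called in EL38 and 11.1% in EL36, both relative to EL35. At EL36 relative to EL35 the lists gave 3, 7 and 4 lower calls in that order, beside 6.24% of all genes, and 1 higher call, a cytosolic pyruvate kinase (LOC100853352, 1.13, SE 0.32).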

How the data were processed

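Berry RNA of 9 groups (3 cultivars at 3 stages, 3 replicates each) was sequenced. The authors cleaned reads with SOAPnuke, aligned them with HISAT2 to the V. vinifera V2 genome, added coding transcripts assembled beyond the reference, used Bowtie2 to place reads on transcripts and RSEM to quantify each gene. The deposited expected counts are not normalised, and the deposited FPKM values are scaled to transcript length and library size. The deposited gene lengths are mean transcript lengths in bases. RSEM divides reads between similar sequences by estimate, so near-identical copies are uncertain. Expected counts were rounded and fitted in edgeR 4.0.16 (R 4.3.3; TMM, filterByExpr, quasi-likelihood F test) with 1 coefficient per group over 27 samples, and stage or cultivar differences were averages over the other factor. A call was a Benjamini-Hochberg adjusted p of 0.05 or less. Each sample was a pool of berries, and the vine of each pool is not given, so p-values measure the spread between these pools, which may be partly technical. The procedure was tested on simulated counts for EL38 relative to EL35, averaged over cultivars. It recovered 21 of 100 genes changed by a log2 of 1 and 99 of 100 changed by 2, and called 3 unchanged genes. The changed genes were drawn only from those averaging at least 100 counts per sample, so recovery of weaker genes was not measured. The simulated dispersion, the model's spread between replicates, was 0.25, below the common value of 0.526 in the data. A small difference without a call is thus not shown to be absent. DESeq2 1.42.0, other scalings, no filter, the groups of each contrast alone, a replicate block, the study's thresholds (adjusted p of 0.001 and a log2 fold change of 1) and leaving out samples were alternatives. Leaving out the 3 samples whose seed list exceeded 1000 FPKM was chosen after seeing the data. Members and lists were chosen with earlier results of these data known. Genes were named by role (the highest mean FPKM), by smallest adjusted p among called members (up to 8 per direction between EL38 and EL35, 4 per direction between cultivars), and all L-idonate dehydrogenase, PEPCK and dicarboxylate transporter genes with a mean count of at least 10. Others named were chosen after their values were seen. Of the 98 members, 90 matched the RefSeq gene table. Whether seeds were removed before extraction is not given in the sources used here.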

Additional observations from a re-analysis of the deposited data

How the results depend on the processing

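DESeq2 called 18 members in EL36 (beside 15.7% of all genes) and 15 in EL38 (beside 14.3%) relative to EL35. It called 3 in EL38 relative to EL36 (beside 1.03%) and 20 between Zaomeiguixiang and Italia (beside 20.4%). For EL38 relative to EL35 it called 7 in Zaomeiguixiang (beside 5.3%), 6 in Italia (beside 8.82%) and 8 in Xiangfei (beside 6.66%). With library totals alone EL36 gave 19 (beside 10.9%). With the groups of the contrast alone, Zaomeiguixiang against Italia gave 26 (beside 21.3%) and EL38 against EL35 in Italia 0 (beside 0.275%). The study's thresholds, applied here to the edgeR fit, left 1 call in EL36 and 2 in EL38 relative to EL35. Between cultivars they left 5 for Italia and Xiangfei and 3 between Zaomeiguixiang and each other cultivar. For EL38 against EL35 they left 0 members in Zaomeiguixiang and in Italia. Of all 21152 tested genes they left 242 in EL36, 317 in EL38 and 673 between Italia and Xiangfei. Between Zaomeiguixiang and Xiangfei they left 452 genes, and between Zaomeiguixiang and Italia 542. For EL38 against EL35 they left 0 genes in Zaomeiguixiang and 2 in Italia. With DESeq2, the tool to which the study applied these thresholds, they left 308 genes in Zaomeiguixiang and 454 in Italia. Without Italia EL35 replicate 3 and Xiangfei EL38 replicate 3 the counts were 21 in EL36 (beside 12.5% of all genes) and 17 in EL38 (beside 11.5%). They were 37 between Zaomeiguixiang and Xiangfei (beside 27.7%) and 29 between Zaomeiguixiang and Italia (beside 21.0%). For EL38 against EL35 they were 6 in Zaomeiguixiang (beside 2.45%), 8 in Italia (beside 5.62%) and 4 in Xiangfei (beside 2.68%). Without all 3 seed-rich samples they were 18 in EL36 (beside 11.1%), 25 between Zaomeiguixiang and Italia (beside 17.9%), 7 in Italia (beside 5.15%) and 1 in Xiangfei (beside 2.03%). Leaving out 1 sample at a time gave 7 to 17 calls in EL36, 9 to 19 in EL38, 13 to 18 between Italia and Xiangfei, 17 to 34 between Zaomeiguixiang and Xiangfei, 12 to 22 between Zaomeiguixiang and Italia, and 0 to 5 in Zaomeiguixiang, 2 to 6 in Italia and 0 to 3 in Xiangfei, with 0 for EL38 against EL36 and for the difference between cultivars. No share of all genes is given beside these leave-one-out ranges, so they are not a result about the members as a class. Replicate numbers did not pair samples (mean correlation of deviations -0.00609 for the same number and 0.00342 for different numbers). The fit with a replicate block gave 8 calls in EL36 (beside 8.62% of all genes) and 10 in EL38 (beside 8.57%). Uncalled EL38 values that changed sign when 1 sample was left out ranged from -0.14 (without Xiangfei EL38 replicate 2) to 0.17 for LOC100253811, -0.05 (without Zaomeiguixiang EL35 replicate 2) to 0.29 for LOC100255213, -5.14 to 2.15 (without Italia EL35 replicate 3) for LOC100261216, and -0.09 (without Italia EL35 replicate 3) to 0.27 for LOC100233103. LOC100255213 was also at -0.03 without the 3 seed-rich samples. The cause of these changes was not tested.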
